A study of Mus musculus with 4 samples.

Results

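The genes that encode the enzymes of de novo pyrimidine synthesis around DHODH were followed by RNA-seq in the mouse breast cancer cell line 4T1, in cells that were wild type (WT) or carried the DHODH KO genotype. The 6 genes, Cad, Dhodh, Umps, Cmpk1, Ctps and Ctps2, were chosen by name from the 16695 genes of the deposited table, and all of them passed the filter of a mean of at least 1 FPKM that left 10170 genes for testing. FPKM is the number of reads of a gene scaled to its length in kilobases and to the reads of the library. Each genotype had 2 libraries, named WT 1, WT 2, KO 1 and KO 2 here after their replicate numbers, from total RNA of cultured cells with no treatment named. How the knockout was made, whether the KO cells were a clone and whether replicates were separate cultures is not in the labels, and p-values therefore cover no more than the spread between the 4 libraries, which may be technical. The question of the study was how gene expression depends on DHODH.

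De novo synthesis builds the pyrimidine ring from glutamine, bicarbonate and aspartate. CAD, a single cytosolic protein with carbamoyl-phosphate synthetase, aspartate transcarbamylase and dihydroorotase activities, makes dihydroorotate, and DHODH in the inner mitochondrial membrane oxidises it to orotate and passes the electrons to ubiquinone. UMPS then joins orotate to phosphoribosyl pyrophosphate (PRPP) and removes a carboxyl group to give UMP, CMPK1 turns UMP into UDP, nucleoside diphosphate kinases make UTP, and the CTP synthases CTPS1 (encoded by Ctps) and CTPS2 convert UTP to CTP with the nitrogen of glutamine. Proliferating cells, tumour cells among them, rely on this route for RNA, DNA, sugar nucleotides and phospholipids, and can also salvage uridine and cytidine from outside.

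Reads recovered as whole numbers from the steps of the FPKM values numbered 25750239 in WT 1, 25200939 in WT 2, 28133082 in KO 1 and 28078316 in KO 2. These sums are below the full depth of the libraries. Left out are genes above 0 in a single library and 180 of the 14934 genes above 0 in at least 2 libraries. Of 7 epithelial markers, 6 were above 0 in all libraries, among them Cdh1 (100 to 119 FPKM) and Epcam (42.1 to 63.4 FPKM). Krt5 was listed at 0 in all but KO 2 (0.457 FPKM), and leukocyte markers summed to at most 0.153 FPKM. KO 2 stood apart, as it held heart muscle transcripts. Of 10 heart muscle markers, 7 were listed at 0 in the other 3 libraries and all 10 were above 0 in this one, and the 9 markers without Tnnt2 summed to 86.7 FPKM in it against 0.0450 to 0.295 FPKM elsewhere. Tnnt2 itself lay between 188 and 208 FPKM in all 4 libraries. Fibroblast and endothelial markers summed to 8.04 FPKM in KO 2 and to 2.57 to 3.10 FPKM in the others. The part of these transcripts in the results was not tested, and values without this library are given where leaving it out ends a call or moves a count by over 1.5 times.

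Of the 6 enzyme genes, Cad and Dhodh fell in KO, none rose, and Umps, Cmpk1, Ctps and Ctps2 did not pass the test. The change of Cad was the largest of the 6, a loss of 26.5% of its mean FPKM, and that of Dhodh was 13.4%. Over all genes tested, 64.7% passed limma-trend with a Benjamini-Hochberg adjusted p under 0.05, 35.6% as higher and 29.1% as lower in KO, whereas 2 of the 6 enzyme genes (33.3%) were called. The median log2 fold change, KO minus WT on the log2(FPKM + 1) scale, was -0.07 for the 6 genes and 0.04 for all genes tested. The FPKM values of the genotypes did not overlap for 5 of the 6 genes, beside 83.4% of all genes tested.

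**Figure D1:**
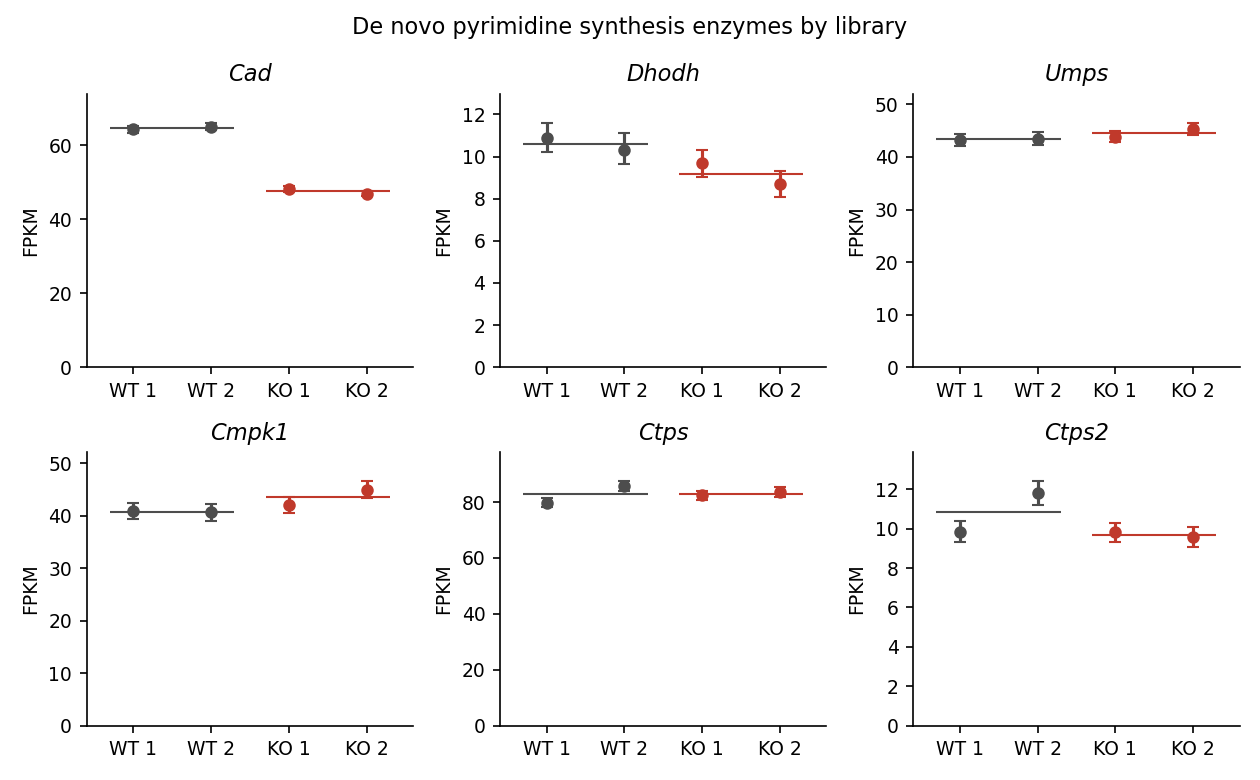
FPKM (vertical axes, from 0) of the 6 enzyme genes in the 2 WT libraries (grey) and the 2 DHODH KO libraries (red), with horizontal lines at the genotype means and bars for exact 95% Poisson intervals of the recovered reads, which cover counting error only. Cad drops from about 64.2 and 65.0 to 48.0 and 46.9 FPKM, while Ctps overlaps between the genotypes.

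Dhodh, the targeted gene, was transcribed in all 4 libraries. It measured 10.9 FPKM in WT 1, 10.3 in WT 2, 9.67 in KO 1 and 8.69 in KO 2. Both KO libraries were below both WT libraries, but the counting intervals of WT 2 (9.65 to 11.1 FPKM) and KO 1 (9.03 to 10.3 FPKM) overlapped. The values rested on 900 and 839 reads in WT and 854 and 768 reads in KO, the fewest of the 6 genes. The log2 fold change was -0.19 ± 0.0682 (SE, 95% interval -0.35 to -0.03, adjusted p = 0.0425), and 62.3% of all genes tested had a larger change in either direction. The call was lost without WT 1 (log2 fold change -0.16, adjusted p of 0.170), WT 2 (-0.22, adjusted p of 0.0597) or KO 2 (-0.12, adjusted p of 0.200), as well as in 3 of the 11 other settings tried. A sum over the gene cannot show a short insertion or deletion, so these values check the KO label only weakly. No stretch of 50 bases of the longest coding Dhodh transcript occurs in a transcript of another gene in the GENCODE annotation of GRCm38, and no other gene there overlaps its exons.

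Cad, the gene of the protein that starts the pathway and is its main point of control, was the enzyme gene with the clearest change. It measured 64.2 FPKM in WT 1, 65.0 in WT 2, 48.0 in KO 1 and 46.9 in KO 2. The libraries of a genotype were close to each other, and both KO libraries were far below both WT libraries. The counts behind these values were 16261 and 16126 reads in WT against 12959 and 12668 in KO. The log2 fold change was -0.44 ± 0.0375 (95% interval -0.53 to -0.35, adjusted p = 6.7e-05), and 27.2% of all genes tested had a larger change in either direction. It stayed between -0.49 and -0.42 and past the threshold in all 15 other settings, the leave-one-out fits included, with adjusted p-values from 1.2e-08 to 0.00330. No stretch of 50 bases of its longest coding transcript occurs in another gene's transcript.

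The promoter windows of Cad, which fell, and of Umps, which encodes the enzyme after DHODH and was not called, are shown because their genes differ in response while acting in the same pathway. The windows run from 250 bases before to 50 bases after the gene's start in RefSeq (GRCm38.p6, an older build than that of the submitters), at chr5:31054530-31054829 on the plus strand for Cad and at chr16:33966989-33967288 on the minus strand for Umps. Capitals mark GC boxes (GGGCGG, the letters known to bind SP1) and the core of the cAMP response element (TGACG), each on either strand.
Cad: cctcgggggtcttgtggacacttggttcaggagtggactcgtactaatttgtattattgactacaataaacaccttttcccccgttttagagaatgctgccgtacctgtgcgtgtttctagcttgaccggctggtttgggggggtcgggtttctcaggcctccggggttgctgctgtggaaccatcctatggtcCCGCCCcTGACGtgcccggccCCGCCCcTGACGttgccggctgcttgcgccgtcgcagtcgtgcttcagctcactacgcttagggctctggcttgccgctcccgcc
Umps: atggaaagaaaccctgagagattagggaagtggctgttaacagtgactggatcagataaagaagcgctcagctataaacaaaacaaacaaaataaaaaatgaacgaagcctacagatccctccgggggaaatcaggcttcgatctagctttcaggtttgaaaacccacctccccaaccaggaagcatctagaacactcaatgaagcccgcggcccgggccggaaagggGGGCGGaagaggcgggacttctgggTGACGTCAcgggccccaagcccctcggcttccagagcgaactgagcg
The Cad window held 2 GC boxes and 2 such cores, which lay in the longest repeat of the window, the 14 bases CCCGCCCCTGACGT that begin 57 and 36 bases before the start. Among 32851 windows of the table, searched on both strands, 1 held these 14 bases, that of Cad. They were taken from that window after the sequence was seen, so its match was fixed in advance. How many windows hold other stretches of 14 bases was not computed, so the count does not set Cad apart. The Umps window held 1 GC box and a full palindromic element TGACGTCA, which 1.79% of all windows held. A GC box was present in 35.7% and the core TGACG in 20.8% of all windows, in those of Cad, Umps and Cmpk1, and, each in a different window, in those of Ctps, while none of the 3 Ctps2 windows held either. The E-box CACGTG, the letters known to bind MYC and MAX, was in 7.15% of all windows and in none of the 8 windows of the 5 enzyme genes that the table lists. A match or its absence is a description of these letters in this window. Sites further than 50 bases after the start lie outside it and were not searched, so no absence from the whole promoter follows. Dhodh is not shown.

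Umps, the enzyme gene directly after Dhodh in the pathway, was not called. It measured 43.3 and 43.5 FPKM in libraries WT 1 and WT 2, and 43.9 and 45.3 FPKM in libraries KO 1 and KO 2. Both KO values were above both WT values, but the counting intervals of all 4 libraries overlapped, from 42.1 to 44.4 FPKM in WT 1 and from 44.1 to 46.5 FPKM in KO 2. The log2 fold change was 0.04 ± 0.0396 with an adjusted p of 0.419, and its 95% interval from -0.05 to 0.13 corresponds to KO levels of 0.963 to 1.10 times WT on that scale. Of its exonic bases, 6.11% overlap the antisense gene Gm15829, and the use of strand in counting is not given in the sources used here.

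Cmpk1, the UMP and CMP kinase gene, measured 40.9 and 40.7 FPKM in libraries WT 1 and WT 2, and 42.1 and 45.0 FPKM in libraries KO 1 and KO 2. The KO values were both above the WT values, and the KO libraries differed from each other by more than either WT library differed from KO 1. The log2 fold change was 0.09 ± 0.0457 (95% interval -0.02 to 0.20, adjusted p = 0.119). Without KO 1 it was 0.14 and passed the test (adjusted p = 0.0304), and without KO 2, the library with heart transcripts, it was 0.04 (adjusted p = 0.450). Stretches of 50 bases shared with 3 other genes made up 2.98% of its longest coding transcript, and no stretch of 100 bases was shared.

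The CTP synthase genes differed in level and in spread. Ctps, which encodes the isoform that proliferating human lymphocytes depend on, was the highest of the 6 genes, at 79.8 and 85.7 FPKM in libraries WT 1 and WT 2 and at 82.4 and 83.5 FPKM in libraries KO 1 and KO 2. Both KO values lay between the WT values, with a log2 fold change of 0.00 ± 0.0436 (95% interval -0.10 to 0.11, adjusted p = 0.933). Ctps2 measured 9.85 FPKM in WT 1, 11.8 in WT 2, 9.82 in KO 1 and 9.58 in KO 2. WT 2 was the high library, and its counting interval (11.2 to 12.4 FPKM) did not overlap that of WT 1 (9.34 to 10.4 FPKM), while WT 1 and the KO libraries were close together. The log2 fold change of Ctps2 was -0.14 ± 0.0837 (95% interval -0.34 to 0.06, adjusted p = 0.179). It was -0.26 without WT 1 (adjusted p = 0.0212) and -0.02 without WT 2 (adjusted p = 0.856), and it passed with voom on the recovered reads (-0.20, adjusted p = 0.0467). The longest coding transcripts of Ctps and Ctps2 shared no stretch of 50 bases with each other.

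**Figure D2:**
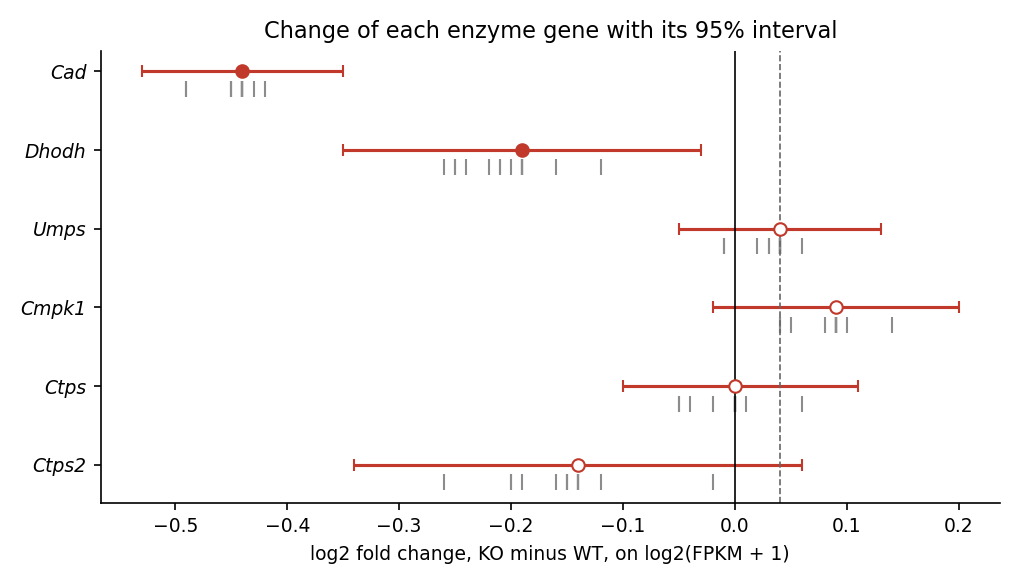
Log2 fold change, KO minus WT on the log2(FPKM + 1) scale (horizontal axis), of the 6 enzyme genes. Circles with bars are the estimates with their 95% intervals from limma-trend, filled where the adjusted p is under 0.05, grey ticks are the estimates under the other settings, and the dashed line is the median of all genes tested, 0.04. Cad (-0.44) lies apart from the other 5 genes, whose estimates run from -0.19 to 0.09.

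By FPKM, a level per kilobase, the 4 highest of the 6 genes were Ctps, Cad, Umps and Cmpk1, in that order in all 4 libraries, and Ctps2 and Dhodh were lowest, with Ctps2 below Dhodh in WT 1 and above it in WT 2. Umps and Cmpk1 were neighbours with a ratio Cmpk1 to Umps of 0.947 and 0.935 in WT and of 0.959 and 0.994 in KO. Ctps2 and Dhodh could not be ordered, as their ratio ran from 0.906 to 1.14 in WT and from 1.02 to 1.10 in KO. Cad stayed above Umps in KO, by less than in WT. The ratio of Cad to Umps was 1.48 and 1.49 in the WT libraries and 1.09 and 1.04 in the KO libraries, a ratio that does not depend on the scaling of a library. With 2 libraries against 2, an exact permutation test cannot give a two-sided p below 0.33, so ratios are given without a test.

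Cad over Dhodh was 5.91 and 6.29 in WT and 4.96 and 5.40 in KO, so the genotypes did not overlap, and the fall of Cad was larger than that of Dhodh in these libraries. Umps over Dhodh was 3.98 and 4.21 in WT and 4.54 and 5.21 in KO. Ctps over Ctps2 was 8.10 and 7.26 in WT and 8.39 and 8.72 in KO, while Ctps over Umps overlapped between the genotypes, at 1.85 and 1.97 in WT and 1.88 and 1.84 in KO. The FPKM of the 6 genes summed to 248.9 and 256.9 in WT and to 235.9 and 238.9 in KO. Cad made up 25.8% and 25.3% of that sum in WT and 20.4% and 19.6% in KO, and Dhodh between 3.64% and 4.36% in all libraries.

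**Figure D3:**
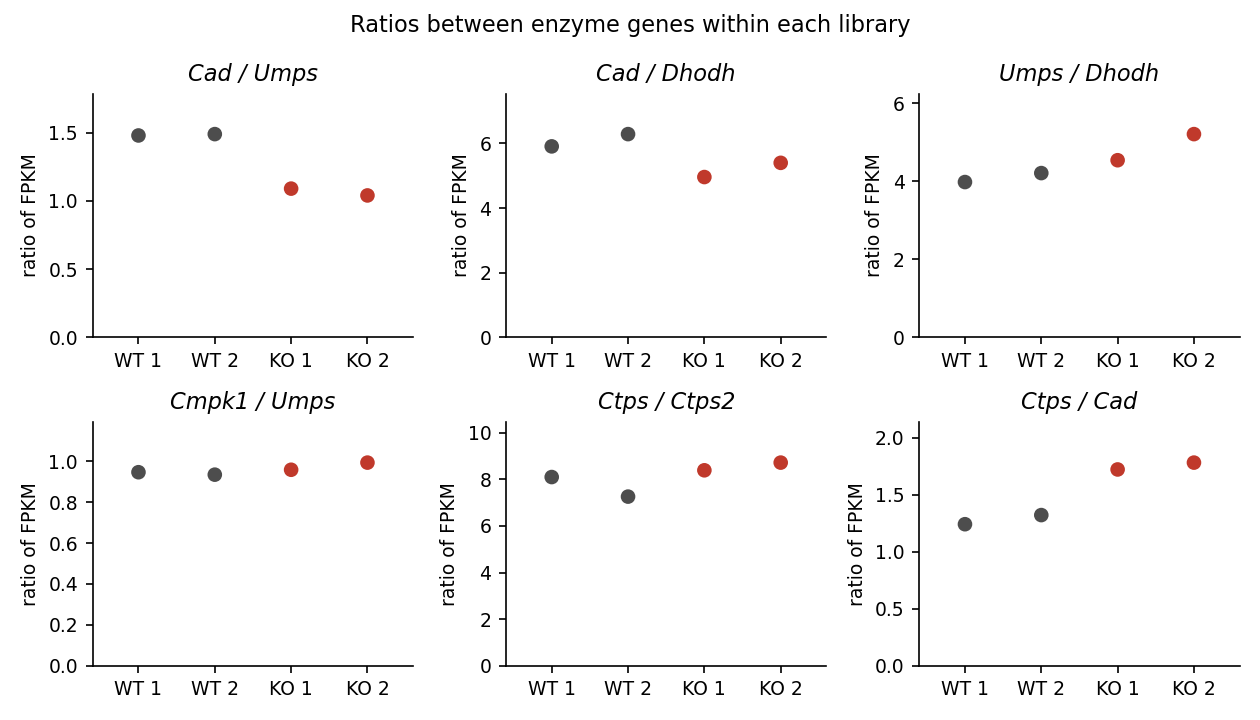
Ratio of FPKM between pairs of enzyme genes (vertical axes, from 0) in each of the 2 WT (grey) and 2 DHODH KO (red) libraries. Cad over Umps falls from 1.48 and 1.49 to 1.09 and 1.04, and Cmpk1 over Umps stays between 0.935 and 0.994.

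Genes with the nearest profiles were found by Euclidean distance between log2(FPKM + 1) values centred on each gene's mean over the 4 libraries. The nearest to Cad were Slc29a2, an equilibrative nucleoside transporter gene that also stands on the salvage list, at a distance of 0.00689, Btrc, which encodes a substrate receptor of a ubiquitin ligase, at 0.00952, and the splicing factor gene Sf3b3 at 0.0140. Slc29a2 measured 3.16 and 3.23 FPKM in WT and 2.13 and 2.06 FPKM in KO, and Btrc 2.94 and 2.95 FPKM in WT and 1.95 and 1.89 FPKM in KO. At such low levels the pseudocount of 1 shrinks the log2 change. In FPKM both genes therefore fell by a larger share than Cad, and their nearness to it holds on this scale only. The nearest to Dhodh were the helicase gene Ighmbp2 (distance 0.0120), Sh3pxd2b and Upf3a, and Upf3b (0.0113) and Hps3 (0.0167) were near to Ctps. Marcksl1 (0.00581), Pmf1 and Gcc1 were nearest to Umps, Padi4 (0.0126), Dusp6 and Ywhah to Cmpk1, and Clp1 (0.0172), Ttl and Plscr3 to Ctps2. As only 4 libraries define a profile, many genes were close, with 433 protein-coding genes within 0.1 of Cad, 382 of Dhodh and 83 of Ctps2.

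Of 11 tested genes for PRPP, aspartate and glutamine supply, 2 rose and 6 fell (72.7% called, beside 64.7% of all genes tested). Their median log2 fold change was -0.13. Got1, the cytosolic aspartate aminotransferase gene, was at 43.5 ± 0.888 FPKM in WT (mean ± SD, n = 2) and fell by 0.77 on the log2 scale (adjusted p = 8.5e-06). Slc1a5, a glutamine transporter gene, fell from 47.9 ± 0.579 to 32.8 ± 1.60 FPKM (-0.53, adjusted p = 7.1e-05). Glul, which encodes glutamine synthetase, rose from 127 ± 0.427 to 199 ± 1.21 FPKM (0.64, adjusted p = 6.6e-06). Without WT 1, WT 2 or KO 2 in turn, 1 gene of the list was called higher.

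Known regulators of CAD and of its gene mostly did not pass the test, with 2 of 11 higher and 1 lower. These calls made up 27.3% of the list, beside 64.7% of all genes tested. The MAP kinase gene Mapk3, whose product ERK1 belongs to a kinase family that phosphorylates CAD, rose from 44.5 ± 0.0457 to 78.5 ± 4.53 FPKM (0.80, adjusted p = 1.3e-05), and Rheb, a GTPase gene of the mTORC1 pathway, rose by 0.33 on the log2 scale (adjusted p = 6.6e-04). Max, the partner gene of Myc, fell from 44.8 ± 4.24 to 38.3 ± 0.370 FPKM (-0.22, adjusted p = 0.0185), a call that was lost without WT 2 (-0.12, adjusted p = 0.120), without the mean trend (adjusted p = 0.0505) and when genes of low level were kept (adjusted p = 0.107). Myc, a known activator of Cad transcription and named after its value was seen, measured 208 and 206 FPKM in WT and 214 and 210 FPKM in KO (0.04, adjusted p = 0.331; -0.01 with median-ratio scaling and with voom). Over the leave-one-out fits the number of these regulators called lower lay between 0 and 3, with 0 without WT 2 and 3 without KO 2.

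Downstream of UMP, the nucleoside diphosphate kinase genes had 1 of 6 members up and 3 down (66.7% called, beside 64.7% of all genes tested). Nme2, the highest of them, measured 300 and 299 FPKM in WT and 250 and 259 FPKM in KO (-0.23, adjusted p = 7.2e-04). Nme1 fell from 262 ± 12.6 to 204 ± 15.1 FPKM (-0.36, adjusted p = 0.00113) and Nme7 from 4.19 ± 0.00153 to 3.15 ± 0.262 FPKM (-0.32, adjusted p = 0.0101). The member that rose was Nme3 (0.36, adjusted p = 0.0271), named after its value was seen, and its call was lost in 6 of 15 other settings, among them those without WT 2 (0.28, adjusted p = 0.0847) and without KO 2 (0.20, adjusted p = 0.106), with adjusted p-values over all settings from 0.00244 to 0.155; without KO 1 the list had 2 members up. Of 10 genes of enzymes that use CTP, UTP or a sugar nucleotide made from UTP, 3 rose and 3 fell. Pcyt1b, which encodes an enzyme that uses CTP in phosphatidylcholine synthesis, fell from 17.9 ± 0.0746 to 7.23 ± 0.377 FPKM (-1.20, adjusted p = 6.0e-06). Uap1l1 rose from 30.4 ± 1.15 to 64.7 ± 2.10 FPKM (1.07, adjusted p = 4.0e-06) and the UDP-glucose pyrophosphorylase gene Ugp2 from 12.9 ± 0.912 to 20.1 ± 0.296 FPKM (0.60, adjusted p = 1.3e-04). Uap1, also on this list and named after its value was seen, was not called. It measured 24.8 ± 0.791 FPKM in WT and 24.9 ± 0.469 FPKM in KO (0.01, adjusted p = 0.912).

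Salvage, the other source of pyrimidine nucleotides, had 5 of 12 tested genes up and 5 down (83.3% called, beside 64.7% of all genes tested). The list also holds genes of deoxynucleoside kinases and nucleoside transporters, and its median log2 fold change was 0.12. The genes with the smallest adjusted p, Upp1, Cmpk2 and Uck2, fell by 1.56, 2.13 and 0.64 on the log2(FPKM + 1) scale with adjusted p-values of at most 1.2e-05. Among those that rose, Cda changed most, from 5.32 ± 0.714 to 9.22 ± 0.351 FPKM (0.70, adjusted p = 3.9e-04), and was named after its value was seen. The size for Cmpk2, at 4.67 and 4.00 FPKM in WT and 0.117 and 0.324 FPKM in KO, depends on the pseudocount, as it was -3.87 with a pseudocount of 0.1 and -4.49 with voom. Without WT 1 or WT 2 in turn, 3 salvage genes were called higher. The genes of other inner-membrane enzymes that, as DHODH does, hand electrons to ubiquinone had 4 of 8 members up and 3 down (87.5% called). Etfdh, the electron-transfer flavoprotein dehydrogenase gene, rose from 14.7 ± 0.305 to 28.3 ± 0.148 FPKM (0.90, adjusted p = 7.1e-06), and Sdha, the flavoprotein subunit gene of complex II, rose from 71.5 ± 1.01 to 87.9 ± 0.986 FPKM (0.29, adjusted p = 3.2e-04). The other complex II subunit genes of the list, named after their values were seen, went different ways. Sdhd rose (0.28, adjusted p = 4.1e-04), Sdhc fell (-0.23, adjusted p = 0.0106) and Sdhb was not called (-0.04, adjusted p = 0.399). Gpd2, the mitochondrial glycerol-3-phosphate dehydrogenase gene, fell from 24.8 ± 0.233 to 17.7 ± 0.406 FPKM (-0.46, adjusted p = 1.4e-04).

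De novo purine synthesis, the parallel route to the other class of bases, had 2 of 11 genes up and 6 down. This was 72.7% called, beside 64.7% of all genes tested, with a median log2 fold change of -0.14. Impdh2, which encodes IMP dehydrogenase, fell from 221 ± 3.50 to 182 ± 1.18 FPKM (-0.27, adjusted p = 2.9e-04) and Gart from 56.2 ± 0.604 to 45.3 ± 0.136 FPKM (-0.31, adjusted p = 3.3e-04). Adssl1, which encodes an adenylosuccinate synthase, rose from 5.17 ± 0.175 to 13.9 ± 0.516 FPKM (1.27, adjusted p = 6.1e-06). Adss, the other adenylosuccinate synthase gene of the list and higher in level, fell from 68.4 ± 1.39 to 56.7 ± 2.79 FPKM (-0.26, adjusted p = 0.00173). It was named after its value was seen. Without WT 1, 1 purine gene was called higher. In the pyrimidine metabolism pathway of the authors' annotation, which holds the 6 enzyme genes, 27 of the 36 other tested genes were called (75.0%), 8 higher and 19 lower (3 and 16 with no filter on low values). The pyrimidine enzyme genes with 2 of 6 called stand beside these counts, and the difference between the lists was not tested.

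**Figure D4:**
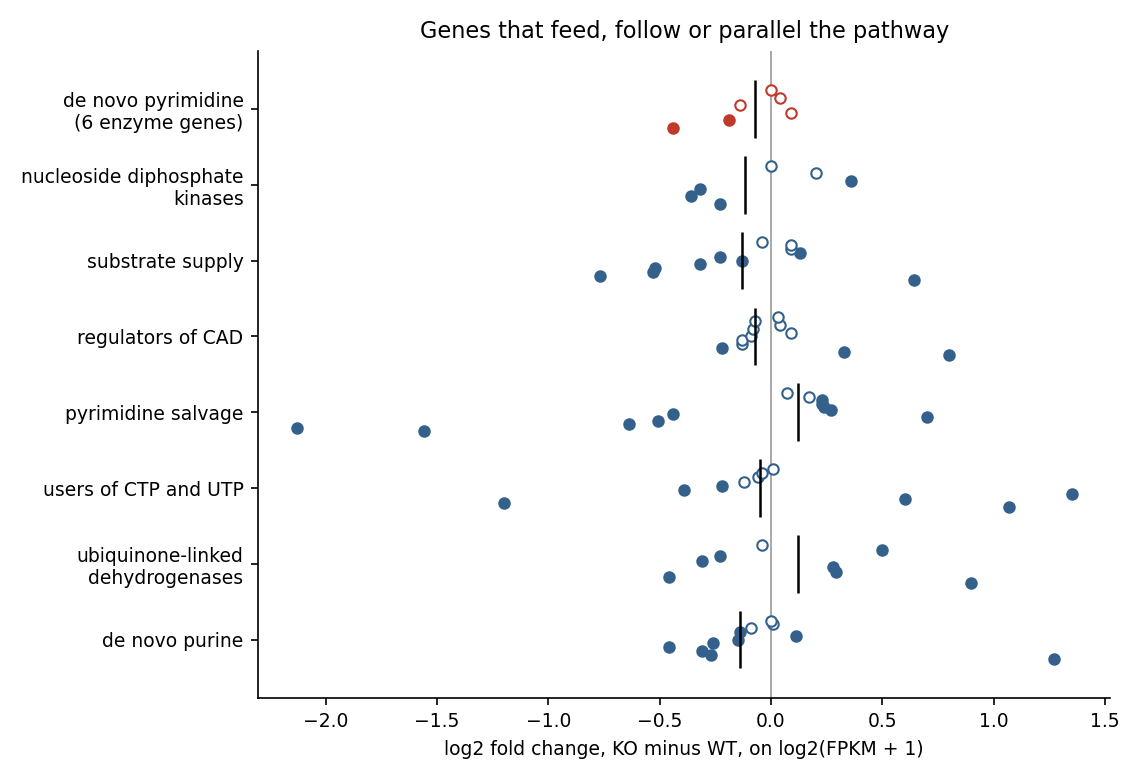
Log2 fold change, KO minus WT on the log2(FPKM + 1) scale (horizontal axis), of each tested gene in the 6 enzyme genes (red) and in 7 related lists (blue), filled where the adjusted p is under 0.05, with a black line at each list's median. The enzyme genes lie between -0.44 and 0.09, and salvage reaches down to -2.13 (Cmpk2).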

How the data were processed

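RNA-seq of 2 WT and 2 DHODH KO libraries of 4T1 cells was available as 1 deposited table of FPKM. Per the labels' protocols, RNA was extracted with TRIzol and 1.3 ug of total RNA went into each Illumina library. The tools fastp and HTSeq and the build GRCm39 are named, without versions, per the submitters' processing notes. Not given in the sources used here are the aligner, the annotation and the strand setting. The authors made the FPKM values, and each column was matched to its sample by name.

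Genes with a mean of at least 1 FPKM over the 4 libraries were compared between KO and WT on log2(FPKM + 1) by limma-trend (limma 3.58.1, R 4.3.3), a two-sided test with no covariate, and p-values were adjusted by Benjamini and Hochberg over all 10170 genes tested and called under 0.05. Whole reads were recovered from the FPKM steps, with a tolerance of 0.002 of a read and up to 20000 reads searched, for 98.8% of the 14934 genes above 0 in at least 2 libraries. Exact Poisson intervals at 95% of these reads cover counting error only. Replicates differed beyond counting noise (mean chi-square per gene 3.76 in WT and 6.38 in KO) and were kept as separate samples. The fit was also run on simulated data with known changes to check the code, which does not test the calls reported here. Tables and figures were made with pandas 2.3.3, NumPy 2.4.6 and Matplotlib 3.10.9 in Python 3.11.15.

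The enzyme genes, the related lists and the alternatives were chosen with earlier results of these data known. Named were all 6 enzyme genes, up to 3 genes with the smallest adjusted p of each related list, and the 3 protein-coding genes nearest to each enzyme gene. A gene that this rule takes is left out of the text, and genes of the related lists outside it are marked as named after their values were seen. The lists are described by counts and medians, without a set test. The purine list holds 11 genes, some listed under older and newer symbols. Promoter windows came from RefSeq on GRCm38.p6 by gene symbol, and 5 of the 6 enzyme genes had one. Transcript comparisons used GENCODE on GRCm38. The alternatives were other pseudocounts, filters, scalings and variance models, voom on the recovered reads, a replicate block, and leaving out each library.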

Additional observations from a re-analysis of the deposited data

How the results depend on the processing

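Of the 6 enzyme genes, Cad kept its direction and its call in all 15 other settings. The call of Dhodh did not hold on the TPM scale (-0.20, adjusted p = 0.0532), when the mean trend was left out (-0.19, 0.0535) or when genes of low FPKM were kept (-0.19, 0.119), and its log2 fold change ran from -0.26 to -0.12 over the fits that leave out a library. The number of enzyme genes lower in KO was then 1 in place of 2 in these 3 settings, and ranged from 1 to 2 when a library was left out, with 0 to 1 higher. With voom, 3 were lower, as Ctps2 passed (-0.20). When a library was left out, Ctps2 ranged from -0.26 to -0.02, Cmpk1 from 0.04 to 0.14 and Ctps from -0.05 to 0.06, and none of these but Ctps2 without WT replicate 1 and Cmpk1 without DHODH KO replicate 1 passed. Signs changed among genes that were not called. Umps was -0.01 with median-ratio scaling and with voom, and Ctps was -0.05 with median-ratio scaling, -0.02 with quantile normalization and -0.04 with voom. Myc, also not called, was -0.01 with median-ratio scaling and with voom. The cause was not tested. Median-ratio scaling moved the median over all genes from 0.04 to -0.01.

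The replicate numbers of the labels are not said to pair the libraries, and the deviations of same-numbered libraries correlated at 0.05 across genes. With a replicate block, Dhodh was -0.19 (adjusted p = 0.0268) and Cad -0.44 (adjusted p = 1.1e-04), no call among the 6 enzyme genes changed, and 3681 genes were higher and 3001 lower, against 3618 and 2958 without the block. Voom scaled by TMM was not run, and voom with median-ratio library sizes took its place. It and a pseudocount of 0.01 were added after seeing the data, and the latter changed no call of the 6. Counts in the related lists that moved by over 1.5 times were the regulators of CAD called lower (1, and 0 to 4 over all settings), and those called higher of salvage (5, and 2 to 5), nucleoside diphosphate kinases (1, and 0 to 2), substrate supply (2, and 1 to 2), purine synthesis (2, and 1 to 2) and the other genes of the annotated pyrimidine pathway (8, and 3 to 9); ubiquinone-linked dehydrogenases called lower (3, and 1 to 3) and salvage genes called lower (5, and 3 to 5) did so with another filter. Depth limits Dhodh most, with 768 to 900 reads per library.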
